A study of Homo sapiens with 4 samples.

Results

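The 10 genes HDAC1, HDAC2, HDAC3, HDAC4, HDAC5, HDAC7, HDAC9, SIRT1, SIRT2 and SIRT6 encode lysine deacetylases, and were taken by name from the 19974 protein-coding genes of chromosomes 1 to 22 and X in the RefSeq table of GRCh38.p14 (hg38). For each gene, every broad peak overlapping its span plus 10 kb on each side, called its window here, was taken from both deposited lists. The peaks come from chromatin immunoprecipitation and sequencing (ChIP-seq) with an HA-tag antibody in a subclone of MDA-MB-231, a human triple-negative breast cancer line. The sample titles name PD-L1, the genotype is given as wild type, and the cells had no treatment. There were 2 ChIP replicates and 2 input libraries, of which only the ChIP peak lists were used. The labels do not state which protein carried the tag or how it got into the cells, and no mock precipitation was analysed here, so chromatin recovered without the target cannot be told apart from chromatin recovered with it. Nothing in the labels says that the replicates were separate cultures.

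Histone deacetylases remove acetyl groups from lysines of histones and of other proteins. The class I enzymes HDAC1, HDAC2 and HDAC3 work as catalytic subunits of nuclear corepressor complexes. The class IIa enzymes HDAC4, HDAC5, HDAC7 and HDAC9 move between cytoplasm and nucleus and bind transcription factors of the MEF2 family. The sirtuins SIRT1, SIRT2 and SIRT6 depend on NAD+, and SIRT2 is found mostly in the cytoplasm. HDAC2 has been reported to deacetylate PD-L1, the cell-surface ligand of the receptor PD-1. The data below concern DNA at the genes of these enzymes, not the enzymes themselves, and gene expression was not measured.

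The stretches before the annotated starts show the DNA at which the class I pair HDAC1 and HDAC2 differed, and are set beside those of SIRT1 and SIRT6, whose starts were covered in replicate 1 and not in replicate 2. They are RefSeq sequence of GRCh38.p14, 5′ to 3′ on the gene's strand, 250 bases long except for SIRT6, where 125 bases are given because the neighbour ANKRD24 begins beyond them. Capitals mark matches, on either strand, to any of 9 motifs. These were the GC box, spelled GGGCGG, and the CCAAT box, spelled as its name. The motif of ETS factors was spelled CCGGAAG, and that of the cyclic AMP response (CRE) TGACGTCA. The E-box was spelled CACGTG and the TATA box was searched as TATAAA. The AP-1 motif was searched in the form TGACTCA, and the STAT motif as TTCNNNGAA with N for any base. The NRF1 motif is the first run of capitals in the SIRT6 stretch.
HDAC1, chr1:32291833-32292082, plus strand, under a peak of both replicates: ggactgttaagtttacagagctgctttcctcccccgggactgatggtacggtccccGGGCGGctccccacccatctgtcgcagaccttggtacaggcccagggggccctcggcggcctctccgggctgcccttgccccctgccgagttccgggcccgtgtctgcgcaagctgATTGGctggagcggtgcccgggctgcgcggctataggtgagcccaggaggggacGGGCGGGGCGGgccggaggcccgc
HDAC2, chr6:113971149-113971398, minus strand, under no peak: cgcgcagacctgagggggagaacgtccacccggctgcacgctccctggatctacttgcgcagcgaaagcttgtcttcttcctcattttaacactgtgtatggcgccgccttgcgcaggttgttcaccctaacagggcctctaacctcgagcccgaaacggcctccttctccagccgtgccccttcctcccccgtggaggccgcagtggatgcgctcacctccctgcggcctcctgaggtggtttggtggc
SIRT1, chr10:67884406-67884655, plus strand, under a peak of replicate 1: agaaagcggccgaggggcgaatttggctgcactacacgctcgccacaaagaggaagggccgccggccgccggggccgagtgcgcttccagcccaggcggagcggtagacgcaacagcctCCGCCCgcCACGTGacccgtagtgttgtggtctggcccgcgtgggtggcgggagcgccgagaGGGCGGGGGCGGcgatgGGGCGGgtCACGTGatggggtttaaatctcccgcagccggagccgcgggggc
SIRT6, chr19:4182564-4182688, minus strand, under a peak of replicate 1: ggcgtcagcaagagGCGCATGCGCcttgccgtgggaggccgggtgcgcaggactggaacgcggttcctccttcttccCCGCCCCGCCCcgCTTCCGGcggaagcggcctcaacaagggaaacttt

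The HDAC2 stretch held none of the 9 motifs, and HDAC1 held 3 GC boxes, 2 of which overlapped, and 1 CCAAT box on the opposite strand. SIRT1 held 4 GC boxes, 2 of them abutting, and 2 E-boxes. The SIRT6 stretch held 2 overlapping GC boxes, 1 ETS match on the opposite strand, and 1 NRF1 match. Over 22130 such 250-base stretches of protein-coding genes, a GC box was in 53.7%, a CCAAT box in 32.7%, an E-box in 7.37%, an ETS match in 10.7% and an NRF1 match in 1.28%. TATA was in 9.0%, AP-1 in 3.45%, STAT in 5.92% and CRE in 2.02%. A match is a run of letters and not a shown binding site. Motifs and peaks did not go together in all members. The stretch before the annotated start of HDAC9 held 2 GC boxes and lay under no peak. The stretch before the internal HDAC4 start at 239273627 held none of the motifs and lay under a peak of replicate 1. The share of all stretches with none of the motifs is not given here. In CG dinucleotides, HDAC1 (21) and HDAC2 (18) lay near the median of 16, and both fell in the class of stretches with 17 to 25. In that class 66.2% of stretches overlapped a peak of replicate 1, 16.1% a peak of replicate 2 and 13.3% a peak of each. SIRT1, with 32, lay in the class with 26 to 59, in which the shares were 55.9%, 8.52% and 6.25%. HDAC1 and HDAC2 thus lay in the same class of CG content. In the 1 Mb on each side of the window, replicate 1 had 148 peaks per Mb around HDAC1 and 15 around HDAC2. In replicate 2 these were 71.0 and 8.5. What sets the 2 genes apart was not tested.

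Peaks lay in the windows of nearly all members, but in very unequal numbers. A peak of replicate 1 was in the windows of 9 of the 10 genes, where 83.2% of all protein-coding genes had one. A peak of replicate 2 was in 8, where 74.5% had one. A shared region, the union of overlapping peaks (at least 1 bp) with at least 1 peak from each list, was in 8, where 59.5% of genes had one. Peaks of replicate 2 carry Merge in their names and no label explains it, so whether that list is independent of the list of replicate 1 is not known. With peaks of a −log10 q of at least 2 alone, 4 members had a shared region (HDAC4, HDAC5, HDAC7 and SIRT2), where 21.8% of all genes did. HDAC2 was the single member with no peak in either list, where 14.1% of genes had none.

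In all, the windows held 172 peaks of replicate 1 and 89 of replicate 2, and HDAC4 alone held 95 and 42 of them. Of the 172, 55 overlapped replicate 2 (32.0%, Wilson 95% interval 25.5% to 39.3%), against 28.7% of the whole list. Of the 89, 54 overlapped replicate 1 (60.7%, 50.3% to 70.2%), against 52.0%. These shares are set against the whole list and not against the surroundings of the genes. HDAC4 was also left out, a choice made after the data were seen. Without it the shares were 39.0% of 77 peaks (28.8% to 50.1%) and 63.8% of 47 (49.5% to 76.0%). These intervals cover counting error only and treat neighbouring peaks as independent, and each includes the share of the whole list except that of replicate 1 without HDAC4, whose lower bound of 28.8% lies just above 28.7%. By place, 130 of the 172 peaks of replicate 1 and 69 of the 89 of replicate 2 lay in gene bodies more than 1 kb from an end. Gene ends, with 1 kb on each side, held 16 and 7, and flanks held 26 and 13. HDAC4 alone held 90 and 39 of the body peaks, and its span made up 353 kb of its 373 kb window. These counts were not set against the lengths of body, ends and flanks, so they show no preference for a place.

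Peak strength in the windows was that of the lists. The authors' fold enrichment over the caller's background had a median of 3.22 in replicate 1 and 2.26 in replicate 2, against 3.14 and 2.27 over all peaks. The highest −log10 q was 3.22 in replicate 1 and 2.74 in replicate 2, where the lists reach 8.48 and 51.3 on these chromosomes. The peak of 4.21-fold in HDAC4, the highest in replicate 1, stood at the 99.5th percentile of its list and overlapped no peak of replicate 2. In replicate 2 the highest fold was 2.78, at 4167708 to 4168434 on chromosome 19 beyond the far end of SIRT6, at the 93.5th percentile, and it overlapped no peak of replicate 1.

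**Figure D1:**
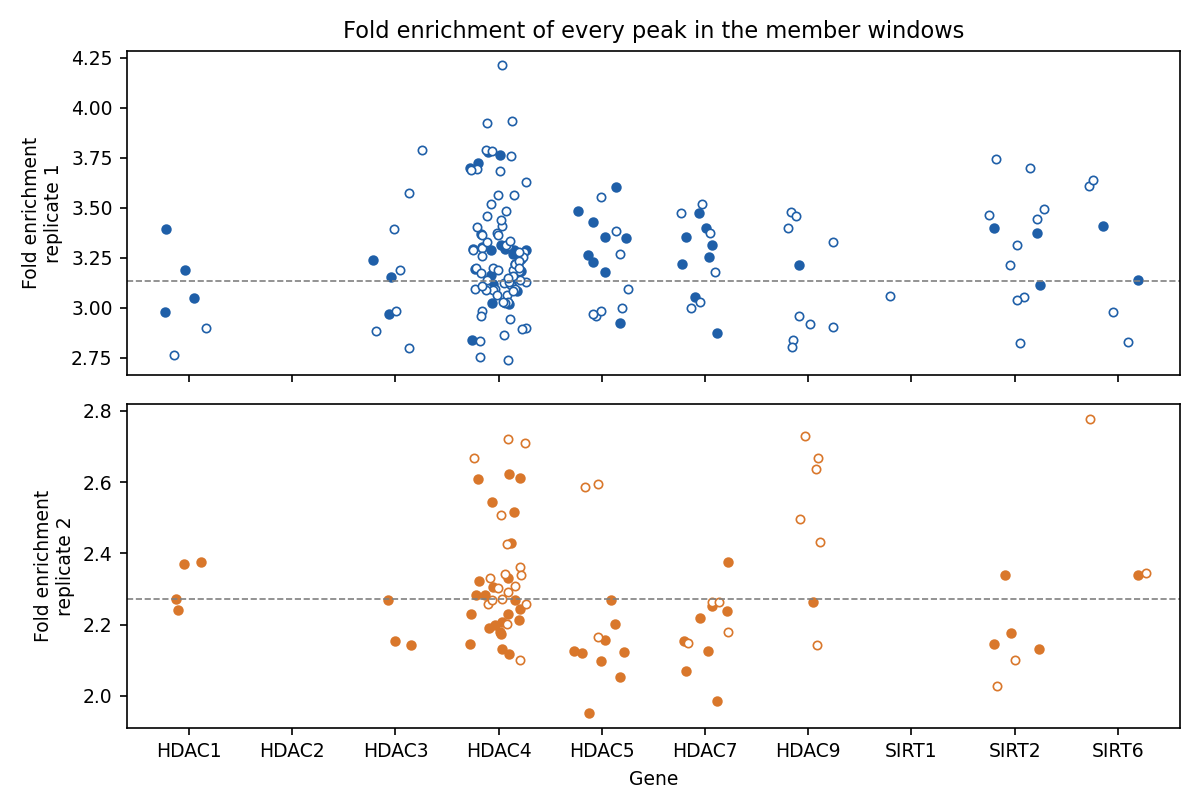
Fold enrichment given by the authors' peak caller (vertical axes, linear and not starting at 0) for each peak in the windows of the 10 genes, with replicate 1 above and replicate 2 below. Filled points overlap a peak of the other list, open points do not, horizontal scatter within a gene carries no meaning, and dashed lines mark the medians of the whole lists (3.14 and 2.27). Points of most genes lie on both sides of the lines, HDAC2 has none in either panel, and SIRT1 has 1 in replicate 1.

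To set each gene against its surroundings, it was compared with the 200 protein-coding genes most alike in window length and in the number of peaks per Mb within 1 Mb on either side of the window. These are called like genes here, and a rank among them is a description without a test. By this rank, HDAC7 stood farthest above its like genes in replicate 2, and HDAC4, with 14 of 200 at or above its count, in replicate 1. The HDAC7 window held 14 peaks of replicate 1 and 12 of replicate 2, against like-gene medians of 5 and 3. At or above its count were 20 of the 200 in replicate 1 and 1 in replicate 2. Counts of HDAC3, HDAC4, HDAC5, HDAC9 and SIRT2 lay above their medians in both replicates, and each stayed at or below the 95th percentile. HDAC1 lay below its medians in both replicates, as did SIRT1, while SIRT6 lay below in replicate 1 and at the median in replicate 2. HDAC2, with 0 peaks, lay below its median of 1 in replicate 1 and at its median of 0 in replicate 2. For the longest genes these counts compare windows of unlike length, at 331 to 2007 kb for HDAC9 and 217 to 642 kb for HDAC4. Per 100 kb of window, HDAC9 had 1.07 and 0.748 peaks in replicates 1 and 2, against like-gene medians of 1.03 and 0.572. HDAC4 had 25.4 and 11.2, against 13.0 and 7.26. For shared regions, adding up the like-gene shares of the 10 genes gives 6.94 genes, beside the 8 found. For shared regions at gene ends the sum is 4, beside the 5 found.

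**Figure D2:**
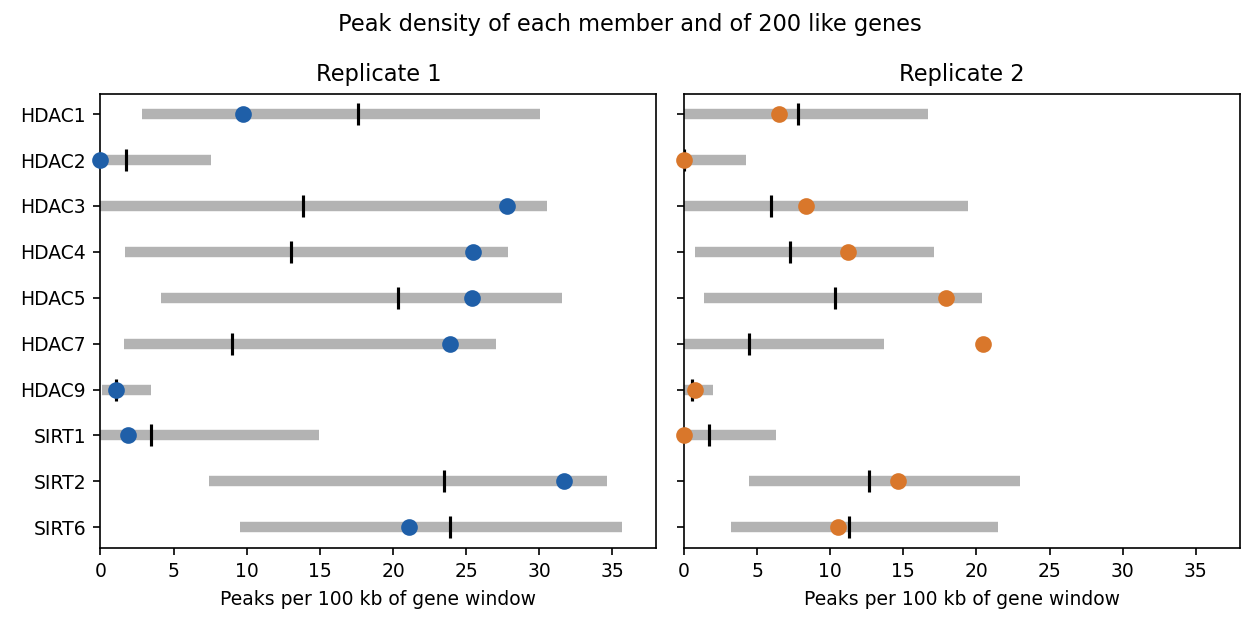
Peaks per 100 kb of gene window (horizontal axes) for each of the 10 genes (circles) in replicate 1 (left) and replicate 2 (right). Grey bars span the 5th to 95th percentile of the 200 like genes of each member and black ticks mark their median. HDAC7 in replicate 2, at 20.5 peaks per 100 kb, is the only circle beyond its bar, whose upper end is 13.7.

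HDAC1 is the catalytic partner of HDAC2 in the SIN3, NuRD and CoREST complexes. Its gene (chr1:32292083-32333626, plus strand) had a window with 6 peaks of replicate 1 and 4 of replicate 2, and all 4 of the latter overlapped replicate 1. A peak covered the annotated start in both lists. It ran from -246 to 450 bp relative to the start in replicate 1 (2.98-fold, −log10 q 1.65) and from -238 to 694 bp in replicate 2 (2.37-fold, 2.11). HDAC1 was thus covered at its start by both replicates. By fold these peaks stood at percentile 27.6 of the replicate 1 list and 64.1 of the replicate 2 list. By −log10 q they stood at 19.8 and 76.2. A second shared region lay inside the other end (chr1:32331879-32332908, 3.05-fold and 2.27-fold). A further 2 lay in the flank past that end, of which the wider (chr1:32336552-32340436, 3885 bp) had 3.39-fold and 2.38-fold. Both of these flank regions lay over the long non-coding gene LOC124903949. Between 694 and 36736 bp after the start no peak of either list was found. In the body of HDAC1 lay 2 peaks of replicate 1, both toward the end away from the start and neither overlapping replicate 2. With peaks of a −log10 q of at least 2 alone, HDAC1 kept no shared region.

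HDAC2 (chr6:113933028-113971148, minus strand) had 0 peaks in replicate 1 and 0 in replicate 2 over a window of 58.1 kb. The nearest peaks of replicate 1 lay 11.5 kb below the gene in coordinates and 49.2 kb above it, with folds of 2.80 and 3.08. Those of replicate 2 lay 59.6 kb below and 173 kb above, with folds of 2.55 and 2.31. The stretch around HDAC2 without a peak was therefore 98.9 kb long in replicate 1 and 271 kb in replicate 2. None of these 4 neighbouring peaks overlapped the other list. The surroundings were sparse too, at 15 (replicate 1) and 8.5 (replicate 2) peaks per Mb, against 148 and 71.0 around HDAC1. Of the 200 like genes of HDAC2, 55 had no peak of replicate 1, 110 none of replicate 2 and 39 none of either. An empty window was thus found in many genes of that length and neighbourhood. A list of peaks shows where a threshold was passed, so signal below it was not measured. Genes were also matched to HDAC2 on window length, surroundings and peak counts of both replicates. The nearest were SERPINI2 on chromosome 3, LRRN3 on chromosome 7 and LOC101060212 on chromosome 17. Each had 0 peaks in both lists, which follows from matching on peak counts and is no separate result. CD274, the gene of PD-L1, had no peak of either replicate in its window. Its surroundings held 4 and 5 peaks per Mb in replicates 1 and 2.

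HDAC3, the catalytic subunit of NCoR corepressor complexes, is the shortest class I gene (chr5:141620881-141636849, minus strand, 16.0 kb). Its window held 10 peaks of replicate 1 and 3 of replicate 2, and all 3 overlapped replicate 1. A pair of shared regions lay in the body, at chr5:141625257-141626572 (3.24-fold and 2.27-fold) and chr5:141628280-141630140 (2.97-fold and 2.14-fold). The third (chr5:141637158-141639047, 3.15-fold and 2.15-fold) lay within 1 kb of the start but ended 309 bp short of it. It lay over part of the neighbouring gene RELL2 and did not touch HDAC3, so that its assignment to the HDAC3 start rests on the window. In replicate 1, peaks flanked that start on either side without covering it, from -1177 to -384 bp and from 383 to 770 bp. Under a reciprocal overlap of 50% the window of HDAC3 held no shared region.

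**Figure D3:**
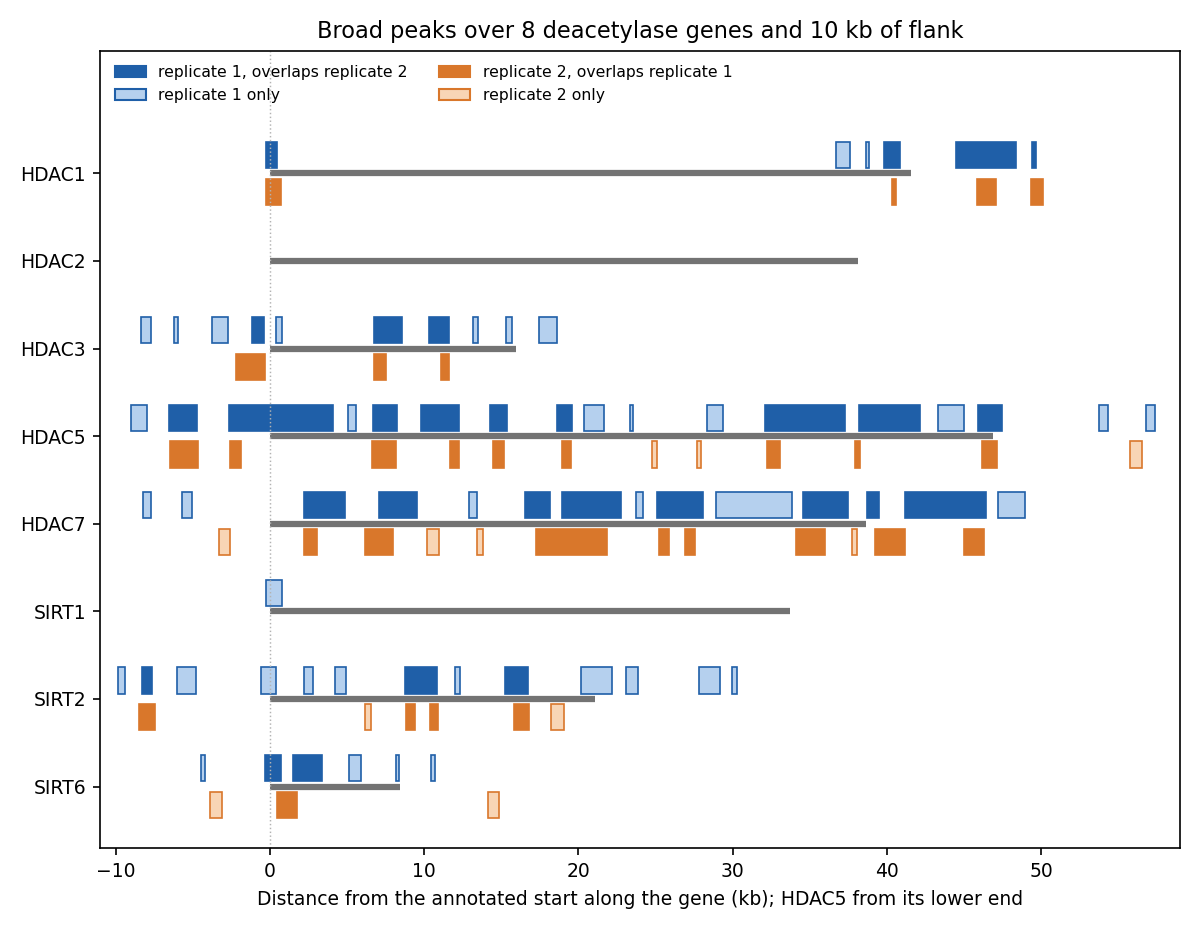
Peaks over 8 of the genes and 10 kb on each side, drawn to scale by distance in kb from the annotated start in the direction of transcription (HDAC5 by distance from its lower-coordinate end). Grey bars are gene spans, boxes above them are peaks of replicate 1 and boxes below are peaks of replicate 2, with dark fill where the peak overlaps the other list. HDAC1 has dark boxes of both replicates at 0 kb, HDAC2 has no box, and HDAC5 and HDAC7 are covered along much of their length.

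HDAC4 is a class IIa deacetylase that represses MEF2 targets. Its gene (chr2:239048168-239401649, minus strand, 353 kb) carried the most peaks of the 10, with 95 in replicate 1 and 42 in replicate 2. The like-gene medians were 41 and 23.5, and in replicate 2, 32 of the 200 like genes had as many or more. Its 23 shared regions made up nearly as many as the other members together, which had 28. They were spread along the gene, which was divided into 10 equal bins: 10 had their centre in the 5 bins nearest the start and 12 in the 5 farthest from it, and each bin held between 1 and 5. The RefSeq table gives 5 starts for HDAC4, and replicate 1 had a peak within 1 kb of each, while replicate 2 had one at 1 of them. Peaks of replicate 1 covered 25.1% of the HDAC4 window. How often other points of the gene lie within 1 kb of a peak was not counted. At the annotated start, replicate 1 had a peak of 3.79-fold (−log10 q 2.82, chr2:239401079-239402960), and replicate 2 had none within 1 kb of that start. The peak also covered the long non-coding gene HDAC4-AS1, so it cannot be assigned to 1 of these genes. The internal start at 239267514 was covered in both lists, within the widest shared region of all members (chr2:239262490-239270312, 7823 bp, 3.29-fold and 2.21-fold). It held 2 peaks of each replicate. The share of replicate 1 peaks in HDAC4 that overlapped replicate 2 was 26.3%, and in the 1 Mb on each side of it the share was 29.4%. For replicate 2 the shares were 57.1% in HDAC4 and 54.1% around it. HDAC4 thus had many peaks, with shares in both lists that lay slightly below those around it in replicate 1 and slightly above in replicate 2.

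HDAC9 encodes a class IIa enzyme of which a form lacking the catalytic domain is also made. It is the longest of the genes (chr7:18086825-19002416, plus strand, 916 kb), and had 10 peaks of replicate 1 and 7 of replicate 2. Per 100 kb of window this was 1.07 and 0.748, against 25.4 and 11.2 in HDAC4. The surroundings differed likewise, with 13.0 and 4.5 peaks per Mb around HDAC9 and 172 and 92.5 around HDAC4. A single region was shared (chr7:18702155-18702424, 270 bp, 3.21-fold and 2.26-fold), 615330 bp from the start. Near the start, replicate 1 had a peak from 303 to 1236 bp (3.48-fold), and replicate 2 had none. A further peak of replicate 1 (chr7:18495587-18496261, 3.40-fold) covered a pair of internal starts about which replicate 2 had none within 1 kb. The remaining peaks of HDAC9 were scattered along the gene without overlap between the lists.

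**Figure D4:**
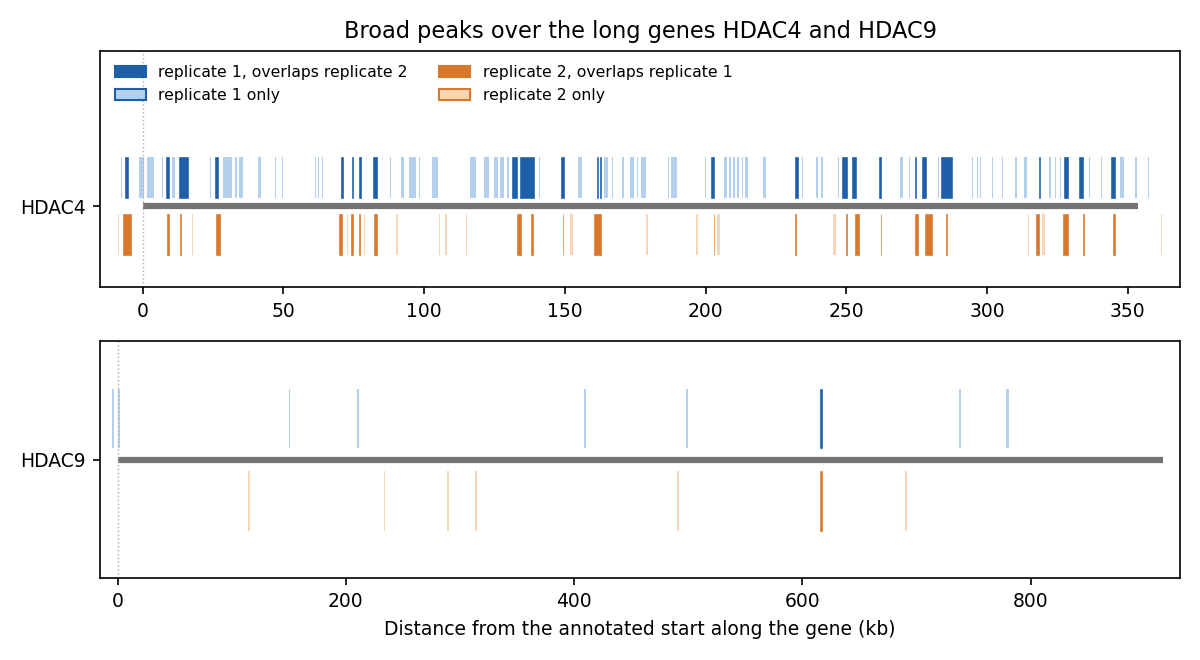
Peaks over HDAC4 (top) and HDAC9 (bottom) by distance in kb from the annotated start along the gene, on separate scales. Grey bars are gene spans, marks above are peaks of replicate 1 and marks below are peaks of replicate 2, dark where they overlap the other list, and narrow peaks are drawn wider than they are (at least 0.3 kb in HDAC4 and 1.5 kb in HDAC9). HDAC4 has marks along its whole length, with 95 and 42 peaks in its window, and HDAC9 has 10 and 7.

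HDAC5 is close to HDAC4 in sequence and role. Its gene (chr17:44076753-44123641, 46.9 kb) had 17 peaks of replicate 1 and 12 of replicate 2, with 9 overlapping the other list in each. It was the only member with a shared region at each of its ends besides HDAC1. At the lower-coordinate end this region was 6737 bp wide (chr17:44074069-44080805, 3.23-fold and 2.1-fold) and reached G6PC3 beside it. The gene end itself was covered by replicate 1, and the peak of replicate 2 ran from -2568 to -1868 bp relative to it. At the higher-coordinate end (chr17:44122675-44124254, 3.27-fold and 2.12-fold) the peaks of both replicates covered the end itself. Peaks of replicate 1 covered 47.7% of the HDAC5 window, a share that 9 of 200 like genes reached. In replicate 2, 14.1% was covered, a share that 34 of 200 reached. Overlap with the other list was frequent, at 52.9% of replicate 1 peaks and 75.0% of replicate 2 peaks, and it was also frequent within 1 Mb (42.9% and 79.7%).

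HDAC7, a class IIa enzyme known from endothelial cells and thymocytes, had the densest coverage of the 10. Its gene (chr12:47782722-47821344, minus strand) had 14 and 12 peaks in replicates 1 and 2, of which 8 and 8 overlapped the other list. Peaks covered 52.9% of its window in replicate 1 and 26.9% in replicate 2. Of the 200 like genes, 1 reached the former and 0 the latter, while their medians were 6.2% and 2.42%. Its density was 2.84 times that of the 1 Mb on each side in replicate 1 and 5.85 times in replicate 2, the highest ratios among the members. It had 7 shared regions, and 5 of 200 like genes had as many or more. Of these, 5 lay in the body, led in width by chr12:47798576-47804836 (6261 bp, 3.47-fold and 2.25-fold). The remaining 2 lay over the neighbour SLC48A1 and did not touch HDAC7, 1 within 1 kb of the end away from the start (chr12:47780149-47782625) and 1 in the flank beyond it (chr12:47774924-47780148). No peak of either list came within 1 kb of the upper gene end, but the RefSeq start of HDAC7 lies 1441 bp inside that end, and a shared region (chr12:47816476-47819151, 3.40-fold and 1.99-fold) came to 752 bp from it.

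SIRT1 deacetylates p53 and histones in the nucleus. Its gene (chr10:67884656-67918390, plus strand) had 1 peak of replicate 1 and 0 of replicate 2. The peak lay over the annotated start, from -290 to 755 bp (3.06-fold, −log10 q 2.11). The nearest peaks of replicate 2 were 50 kb below the gene and 51.0 kb above it. Like-gene medians were 2 in replicate 1 and 1 in replicate 2, and 83 of the 200 had no peak of replicate 2. SIRT1 had thus a start peak in 1 list only, in sparse surroundings of 31.5 and 13.5 peaks per Mb.

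SIRT2, a deacetylase of tubulin, and SIRT6, a chromatin deacetylase with roles in DNA repair and metabolism, both lie on chromosome 19, in dense surroundings of 191 and 211 peaks per Mb in replicate 1 and 109 and 107 in replicate 2. The SIRT2 window (gene chr19:38878555-38899618, minus strand) held 13 and 6 peaks in replicates 1 and 2. Replicate 1 covered the SIRT2 start from -577 to 378 bp with a peak of 3.74-fold and a −log10 q of 3.01. This was the strongest start peak of the 10 genes by −log10 q, and replicate 2 had none within 1 kb. The peak also reached NFKBIB, which lies 48 bp from the SIRT2 start, so it cannot be assigned to 1 of these genes. The shared regions of SIRT2 were in the body, at chr19:38882831-38884383 (3.40-fold and 2.34-fold) and chr19:38888758-38890867 (3.38-fold and 2.18-fold), and over NFKBIB in the flank. The SIRT6 window (gene chr19:4174109-4182563, minus strand) held 6 and 3 peaks. A shared region of 3684 bp (chr19:4179181-4182864) ran from the body over the SIRT6 start, at 3.41-fold and 2.34-fold. There the start itself was covered by replicate 1, from -301 to 695 bp, and the peak of replicate 2 lay inside the gene, from 472 to 1771 bp. The replicate 1 peak also reached ANKRD24, which lies 126 bp from the SIRT6 start, so it too cannot be assigned to 1 gene. Of the like genes of SIRT6, 93.0% had a shared region in the window and 66.5% one at a gene end, so that in these surroundings such a region was usual.

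By place, 5 members (HDAC1, HDAC3, HDAC5, HDAC7 and SIRT6) carried a shared region at a gene end, within 1 kb of it, where 32.9% of all genes had one. This count was 0 with peaks of a −log10 q of at least 2 alone, where 7.55% of all genes had one, and 2 (HDAC1 and HDAC5) with a reciprocal overlap of 50%, where 9.90% did. For the annotated start, strand came with the RefSeq promoter sequences, which were found for 9 members, all but HDAC5. Of these 9, 7 had a peak of replicate 1 within 1 kb of the start, where 64.7% of genes did, and 3 had a peak of replicate 2, where 26.0% did. The same 3 (HDAC1, HDAC3 and SIRT6) had a shared region there, where 24.1% of genes did. Of these 3, only HDAC1 had its annotated start covered in both lists. HDAC5, left out because it had no promoter entry, had its higher-coordinate end covered in both lists, and HDAC4 had an internal start so covered. Whether that end of HDAC5 is its start was not determined here. HDAC1 and HDAC7 had a shared region at the other end, where 17.6% did. Counting every start in the RefSeq table, 5 of 9 members had a shared region within 1 kb (HDAC1, HDAC3, HDAC4, HDAC7 and SIRT6), where 26.8% of genes did. Over the gene span, 8 of 10 had a shared region, where 48.9% of genes did. Of the 51 shared regions in the windows, 38 lay in the body more than 1 kb from an end, 22 of them in HDAC4. A further 7 lay at an end and 6 in the flank. Outside the span of the deacetylase gene lay 8 of the 51, 5 of these over another protein-coding gene.

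The other human deacetylase genes and the partners of the class I enzymes were counted in the same way. Among the 8 others (HDAC6, HDAC8, HDAC10, HDAC11, SIRT3, SIRT4, SIRT5 and SIRT7), each had a peak of each replicate in its window, 6 had a shared region (59.5% of all genes) and 3 had one at a gene end (32.9% of all genes). HDAC6, a tubulin deacetylase, and HDAC8, a class I enzyme that acts on cohesin, both on chromosome X, had 1 peak of replicate 1 and 2 of replicate 2 each and no shared region. HDAC11 had the most shared regions of the 8, with 8 in a window that held 11 and 9 peaks. Of 24 corepressor subunits of NCoR, SIN3, NuRD, CoREST and MiDAC, all had a peak of replicate 1 (83.2% of all genes), 21 one of replicate 2 (74.5%), 17 a shared region (59.5%) and 11 one at a gene end (32.9%). NCOR1, the NCoR scaffold that activates HDAC3, had 9 and 7 peaks and 2 shared regions. In NuRD, the ATPase CHD4 had 5 shared regions and MTA1 had 12, and RBBP4, a histone-binding subunit, had 1. These are examples, and some other NuRD subunits had no shared region. Median density was 22.5 peaks per 100 kb of window in replicate 1 for the 10 members, 16.8 for the other deacetylases, 10.2 for the partners and 8.10 for all protein-coding genes. In replicate 2 it was 9.44, 9.55, 3.65 and 4.0. These medians were not matched for length or surroundings. Against their like genes, 6 of the 10 members reached the median count in replicate 1. In replicate 2, 8 did, with HDAC2 among them at a median of 0. Among the members, the 8 others and the 24 partners, HDAC2 alone had no peak in either list, where 14.1% of all genes had none. Of the 200 like genes of HDAC2, 39 had none.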

How the data were processed

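ChIP-seq peaks of 2 replicates were used. Per the submitters' processing notes, the tools were Bowtie2 2.2.9 and MACS2 2.1.1 and the build was hg38. Their roles, the thresholds and the control used in peak calling were not given in the sources used here. Both deposited lists (166628 and 93618 peaks, of which 166548 and 93591 lay on chromosomes 1 to 22 and X) give per peak a score, the fold enrichment (a ratio), and the −log10 p and −log10 q of the authors' caller, per the layout of its broad peak format. The deposited score equals the whole-number part of 10 times −log10 q in 99.99% of lines of each list and was not used further. Library depth is unknown, since reads were not used here.

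Peaks were intersected with windows in Python 3.11.15 (pandas 2.3.3, Wilson intervals with scipy 1.17.1). Like genes were the 200 protein-coding genes, members left out, nearest in log2 window length and log2 (peaks per Mb + 1) of both replicates, each divided by its SD. Strand and sequence came from a RefSeq promoter table of GRCh38.p14, which matched 9 of 10 members; HDAC5 was not matched. Counting was tested on simulated data, with planted counts recovered for 200 of 200 genes. All 10 members are named, with CD274, the 3 genes nearest to HDAC2, and members of the lists of other deacetylases and partners, where examples were chosen after their values were seen. Members and lists were chosen with earlier results of these data known. No test was made, since the lists hold no contrasted groups. The values of 1 partner gene are not reported here.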

Additional observations from a re-analysis of the deposited data

How the results depend on the processing

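No paired analysis was possible because no test was made: only the ChIP samples have a peak list here, with 1 list per replicate and no second group to pair.

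With peaks of a −log10 q of at least 2, the windows held 70 and 20 peaks of replicates 1 and 2, 8.57% and 30.0% of them overlapped the other list, 4 members had a shared region, and 0 had one at a gene end. With the 50% of peaks of higher fold these were 110 and 37 peaks, 10.9% and 29.7%, 5 members (27.0% of all genes) and 1 (7.65%). With lists of equal length, replicate 1 had 106 peaks, 43.8% of replicate 2 peaks overlapped, and 3 members had a region at an end (26.0% of genes). Reciprocal overlap gave 8.14% and 15.7% and 2 members at an end. With region centres in place of overlap, 2 members had a region at an end (22.8% of genes). Flanks of 50 kb gave 294 and 151 peaks. With HDAC4 left out, chosen after seeing the data, 77 and 47 peaks remained. In a single list, members with a peak in the window numbered 8 to 9, and with one at an end 5 to 9 (37.1% of genes in replicate 2 and 68.8% in replicate 1). HDAC2 had no peak under any of these settings except flanks of 50 kb, with 4 peaks of replicate 1 and 0 of replicate 2. Counts of members at or above the like-gene median were 6 to 7 in replicate 1 and 7 to 8 in replicate 2 with fewer or more like genes or matching on length alone. Fewer peaks enter under the stricter thresholds and equal list lengths; for the other changes the cause was not tested. The low fold of most peaks and the unknown depth limit what a missing peak shows.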
